A study of Mus musculus with 6 samples.

Results

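Hox genes encode homeodomain transcription factors, and their signals were read here across 6 Affymetrix mouse expression arrays of dorsal root ganglion neurons, the sensory neurons that lie beside the spinal cord. The members were every gene whose platform symbol named a Hox gene of cluster A, B, C or D. These were 33 of the 18193 genes with a probe set of 1 symbol. The current gene table holds 39 Hox genes. The other 6 are not analysed here, and 3 probe sets that carry 2 Hox symbols were assigned to no gene. For each member the probe set with the highest mean of log2(signal + 32) over the arrays was used. Signal is the brightness of a probe set in the deposited table, on a linear scale.

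Each array held RNA of 1 pool of neurons in 1 of 3 title codes and 1 of 2 classes of cell diameter, called big and medium to small. L3-B pools were control neurons, 50 per pool. Pools of L3-S and of L6-R were 20 neurons each, with retrograde DiI label. This dye dissolves in membranes and moves along the axon to the cell body, and so marks the neurons that project to the place of labelling. The meaning of the codes, the DiI site, the strain, age and number of the animals, and how neurons were picked, are not stated by the labels. With 1 array for each code and size class, a code is represented by 2 arrays, and nothing in the labels says whether pools came from separate animals, so p-values measure only the spread left between these arrays.

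In vertebrates Hox genes lie in clusters on different chromosomes, and genes of like position in the clusters form paralogue groups, numbered from the 3' end. Low-numbered groups are switched on early and as far forward as the hindbrain, high-numbered groups later and nearer the tail, so the set of Hox genes in a cell is an axial address. In spinal cord and sensory ganglia this code persists in neurons and is known for its part in the identity and connections of motor pools and sensory neurons, and the proteins bind DNA together with cofactors of the TALE homeodomain class (Pbx, Meis and Pknox proteins).

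The pools carried markers of sensory neurons, and no marker list was read for the size classes. All 9 sensory neuron markers on the array had a signal of at least 32 in some array. Their summed signal was 34322 to 35411 in L3-B, 31810 to 36903 in L3-S and 41442 to 46768 in L6-R. Of 6 motor neuron and spinal cord markers 5 were under 32 in every array (Chat, Mnx1, Slc5a7, Slc6a5 and Olig2), and the list summed to 31 to 101. Satellite glia and Schwann cell markers were not all bright throughout, with Sox10 at 7.36 and Cdh19 at 24.4 in medium to small L3-B neurons. S100b alone gave 6832 and 5546 in L3-B. This list summed to 11984 to 12952 in L3-B, 13969 to 17497 in L3-S and 15347 to 21313 in L6-R. Connective tissue and vessel markers summed to 344 to 449, 1459 to 1558 and 1106 to 1887 in the same order, with Col1a1, Pecam1 and Cdh5 under 32 in every array, and blood and immune markers to 104 to 111, 91 to 110 and 161 to 261. The Actb 3' to 5' ratio, a control for the length of the labelled RNA, lay between 3.73 and 13.9 and overlapped among the codes. In these pools less RNA per neuron cannot be told apart from fewer neurons with the RNA.

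A signal of 32 is near the background of such arrays. Of the 33 members 14 were under 32 in all 6 arrays, or 42.4%, against 31.1% of all genes. These dim members were Hoxa2, Hoxa4, Hoxa11, Hoxa13, Hoxb1, Hoxb7, Hoxb9, Hoxb13, Hoxc5, Hoxc13, Hoxd3, Hoxd11, Hoxd12 and Hoxd13. No difference between their arrays is read for a single gene. Of the 19 others, 9 reached 32 in all 6 arrays and 10 in 1 to 5. The genes next to the line were Hoxa3, inside it with 32.3 in 1 array, and Hoxb7, Hoxa13 and Hoxa11, outside it with highest signals of 31.0, 30.95 and 30.7. By paralogue group, 4 of 7 members of groups 1 to 3 were not dim, 9 of 12 of groups 4 to 8, and 6 of 14 of groups 9 to 13. By cluster, the counts were 5 of 9 for HoxA (chromosome 6), 5 of 9 for HoxB (chromosome 11), 5 of 7 for HoxC (chromosome 15) and 4 of 8 for HoxD (chromosome 2). All members of groups 11 to 13, the hindmost of the series, were dim.

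**Figure D1:**
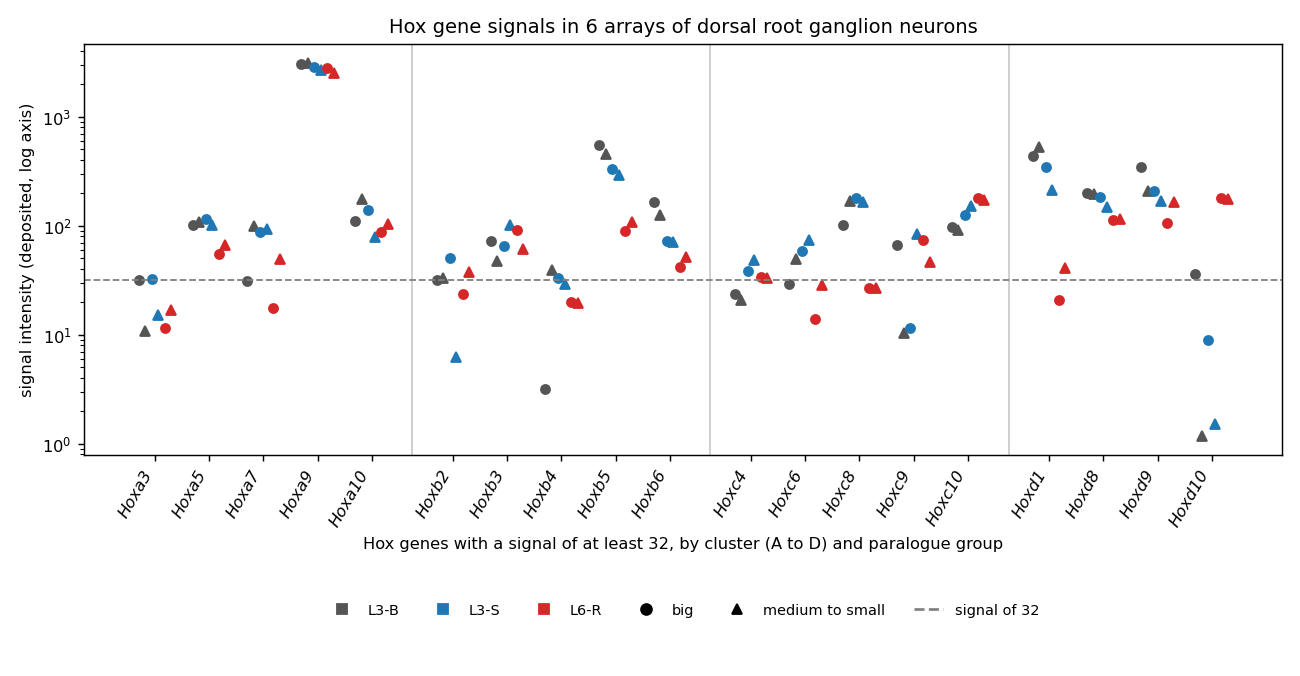
Signal of each of the 19 Hox genes with at least 1 signal of 32, on a log axis, in the 6 arrays. Colour gives the title code, circles are big and triangles medium to small neurons, the dashed line marks 32 and grey lines part the clusters A to D. Both L6-R points of Hoxd1, Hoxb5 and Hoxc8 lie under all 4 others, and both L6-R points of Hoxd10 lie above them; heights of different genes come from different probe sets and are not compared.

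Differences between codes come from 1 limma fit of code and size class to log2(signal + 32) over all 6 arrays. The main test took the brighter 50% of genes (9097), which held 12 members, and a gene passed with a Benjamini-Hochberg adjusted p under 0.05 over all genes tested. The other 7 that were not dim (Hoxa3, Hoxb2, Hoxb4, Hoxc4, Hoxc6, Hoxc9 and Hoxd10) have adjusted p-values only from the same fit without that filter, over 18193 genes. A member dim in one code and bright in another could reach the tested set through the bright one. The added 32 makes folds of low signals smaller than they are on the plain scale. All 3 comparisons of codes draw on the same arrays and are not independent of each other.

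In L6-R against L3-S, the codes alike in dye and pool size, 3 of the 12 tested members fell (Hoxd1, Hoxc8 and Hoxb5), where 1.91% of all genes fell, and 0 rose, where 1.26% of all genes rose. At an unadjusted p under 0.05, 5 members were lower and 0 higher, where 8.17% of all genes tested were lower and 7.46% higher. Without the filter, 2 of 33 fell (Hoxd1 and Hoxc8), against 0.363% of genes, and 1 rose (Hoxd10), against 0.225%. In L6-R against L3-B, 4 of the 12 fell (Hoxd1, Hoxb5, Hoxc8 and Hoxb6), against 2.85% of genes, and 0 rose, against 4.66%. At an unadjusted p under 0.05 there were 7 lower and 1 higher (Hoxc10), beside 9.43% and 12.2% of all genes. Without the filter the same 4 genes fell, against 0.835% of genes, and Hoxd10 rose, against 1.68%. In L3-S against L3-B 0 of 12 passed in limma, where 0.923% of genes rose and 0.0989% fell. There 3 members were lower at an unadjusted p under 0.05 (Hoxb5, Hoxb6 and Hoxd1) and 0 higher, beside 3.04% and 7.11% of all genes, and 0 of 33 passed without the filter, against 0.077% of genes.

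Hoxd1, the member of paralogue group 1 in HoxD and a gene known from nociceptors of the mouse, gave 436 in big and 527 in medium to small L3-B neurons, 344 and 211 in those of L3-S, and 20.6 and 41.1 in those of L6-R. The codes did not overlap: both L3-B arrays were highest and both L6-R arrays lowest, with 1 of them under 32. Hoxd1 fell by 2.29 ± 0.30 on the log2 scale in L6-R against L3-S (SE, n = 2 arrays per code, 4.88-fold on the shifted scale, limma adjusted p = 0.00666), and by 3.04 ± 0.30 against L3-B (8.25-fold, adjusted p = 0.000793). Within the size classes the first difference was -2.84 in big and -1.73 in medium to small neurons. L3-S stood at -0.76 to L3-B and did not pass (adjusted p = 0.40). Every array left out in turn kept the call against L3-S, with adjusted p from 8.06e-05 to 0.0185. With a pseudocount of 1 the difference was -3.16, and with one 4 times the main one -1.34.

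Hoxd10, a gene of the lumbar part of the axis that lies in the same cluster, ran the other way. It gave 36.2 in big and 1.17 in medium to small L3-B neurons, 8.92 and 1.53 in those of L3-S, and 179 and 175 in those of L6-R. Of the 4 L3 arrays 3 were under 32, and both L6-R arrays were far above all of them. Its mean log2 value lay below the filter, so its test is the one without it: Hoxd10 rose in L6-R by 2.50 ± 0.28 against L3-S (n = 2 arrays per code, 5.65-fold on the shifted scale, limma adjusted p = 0.0265) and by 2.14 ± 0.28 against L3-B (adjusted p = 0.0177). The difference to L3-S was 2.37 in big and 2.63 in medium to small neurons. The signals stand apart, but the call depended on single arrays: without any 1 of the L3-S or L6-R arrays the adjusted p against L3-S was 0.0911 to 0.283, and with a pseudocount of 1 or one 4 times the main one it was 0.342 and 0.0759. Against L3-B the call was lost without the medium to small L3-B array (adjusted p = 0.0626), without the big L6-R array (0.0998), without the medium to small L6-R array (0.177) and with a pseudocount of 1 (0.291).

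These 2 genes of HoxD moved in opposite directions, so the 250 bases before each annotated start are shown, from the RefSeq promoter table on GRCm38.p6, plus strand, Hoxd1 at chr2:74762730-74762979 and Hoxd10 at chr2:74691641-74691890. Capitals mark ATTGG, which is CCAAT read on the other strand, and CACGTG, an E-box. These motifs were chosen after the sequences were seen.
Hoxd1: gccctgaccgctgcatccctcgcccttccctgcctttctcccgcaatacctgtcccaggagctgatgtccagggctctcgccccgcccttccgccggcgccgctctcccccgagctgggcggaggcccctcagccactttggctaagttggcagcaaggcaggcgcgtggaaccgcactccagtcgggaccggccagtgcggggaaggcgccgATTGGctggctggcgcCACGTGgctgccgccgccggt
Hoxd10: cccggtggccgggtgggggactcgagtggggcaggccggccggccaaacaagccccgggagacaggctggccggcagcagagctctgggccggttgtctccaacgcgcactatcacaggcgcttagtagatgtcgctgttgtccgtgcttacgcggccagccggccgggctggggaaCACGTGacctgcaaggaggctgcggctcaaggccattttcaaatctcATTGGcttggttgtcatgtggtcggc
Both stretches hold each motif. In Hoxd1 the ATTGG begins 37 and the CACGTG 21 bases before the start, and in Hoxd10 they begin 26 and 73 bases before it, in the opposite order. Hoxd1 has 24 CG dinucleotides and Hoxd10 20, where the median of the 32851 entries of this length is 6. Of all entries 33.8% hold CCAAT on either strand, 6.02% hold CACGTG and 1.98% hold both. The 19 members found in the table have 21 entries, of which 11 hold CCAAT, 4 CACGTG and 3 both. A match is only a match of letters, and the arrays say nothing of binding there.

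Between those 2 genes on the chromosome, Hoxd8 and Hoxd9 were tested and did not pass. Hoxd8 gave 200.2 and 196 for L3-B, 185 and 148 for L3-S and 113 and 114 for L6-R (big, then medium to small, here and below). Hoxd9 gave 344 and 208, 208 and 170.0, and 106 and 165. In both genes the L6-R arrays were the lowest, for Hoxd9 by a narrow margin in the medium to small array. The differences of L6-R to L3-S were -0.44 ± 0.22 for Hoxd8 (limma adjusted p = 0.388) and -0.42 ± 0.30 for Hoxd9 (adjusted p = 0.554), and to L3-B -0.66 (adjusted p = 0.127) and -0.87 (adjusted p = 0.132). The last of these rested on single arrays: it was -0.39 without the big L6-R array, -0.48 without the big L3-B array, -1.35 without the medium to small L6-R array and -1.26 without the medium to small L3-B array, where it passed (adjusted p = 0.0423). It also passed with the Actb covariate (adjusted p = 0.0161), where 1590 of 9097 genes passed, against 683 in the main test. The Hoxd8 probe set is of a design that can bind more than 1 transcript, and the other Hoxd8 probe set stood at -0.31 to L3-S. Hoxd3, Hoxd11, Hoxd12 and Hoxd13 were dim.

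In HoxC, Hoxc8, a gene known from the brachial and thoracic cord, gave 101 and 167 for L3-B, 178 and 165 for L3-S and 26.7 and 26.9 for L6-R. Both L6-R arrays were under 32 and all 4 others above 100. Hoxc8 fell in L6-R by 1.79 ± 0.25 against L3-S (limma adjusted p = 0.00826) and by 1.47 ± 0.25 against L3-B (adjusted p = 0.00996). Since both L6-R signals are near background, the size of the first difference depends on the added constant: it was -2.63 with a pseudocount of 1 and -0.95 with one 4 times the main one, and passed with both. Within size classes it was -1.84 and -1.74. L3-S stood at 0.32 to L3-B and did not pass (adjusted p = 0.802). The call against L3-B was lost without the medium to small L6-R array (adjusted p = 0.0798), and that against L3-S held without each array.

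Hoxc10, of a lumbar paralogue group like Hoxd10, gave 98.0 and 90.7 for L3-B, 125 and 152 for L3-S and 179.6 and 170.15 for L6-R. The 3 codes did not overlap, with L3-B lowest and L6-R highest. It did not pass in any comparison: L6-R stood at 0.29 ± 0.22 to L3-S (limma adjusted p = 0.599) and at 0.71 ± 0.22 to L3-B (adjusted p = 0.105). Only with the Actb 3' to 5' ratio as a covariate, which leaves 1 fewer residual degree of freedom, did it pass against L3-B (adjusted p = 0.0318). That fit called 1590 of 9097 genes against L3-B, where the main test called 683.

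Hoxc6 was low, with 29.3 and 49.0 for L3-B, 58.4 and 73.8 for L3-S and 14.01 and 28.4 for L6-R. Both L6-R arrays and the big L3-B array were under 32 and have no order among them, and the difference to L3-S, -0.89 ± 0.19, did not pass without the filter (limma adjusted p = 0.132). Other probe sets of Hoxc6 stood at -0.45 and 0.16, and the one used can cross-bind. Hoxc4 stayed near the line, with 23.8 and 21.0 for L3-B, 38.0 and 48.2 for L3-S and 33.5 and 32.9 for L6-R, a difference of -0.20 to L3-S. Hoxc9 spread widely inside L3-B and L3-S, with 66.6 and 10.3 for L3-B, 11.5 and 83.3 for L3-S and 73.6 and 46.6 for L6-R. Its difference to L3-S was 0.36 ± 0.56 (adjusted p = 0.864), with the largest SE of the members named here.

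In HoxB, Hoxb5, a gene of the neck and upper trunk, gave 546 and 458 for L3-B, 334 and 289 for L3-S and 88.7 and 107 for L6-R. The codes did not overlap and stood in the same order as for Hoxd1. Hoxb5 fell in L6-R by 1.40 ± 0.23 against L3-S (2.64-fold, limma adjusted p = 0.0174) and by 2.04 ± 0.23 against L3-B (4.11-fold, adjusted p = 0.00157). The first difference was -1.60 in big and -1.20 in medium to small neurons. It was lost without the filter (adjusted p = 0.055) and without the big L6-R array (adjusted p = 0.20). The antisense transcript Hoxb5os, which overlaps Hoxb5 and has a probe set of its own, gave 220 and 102 for L3-B, 153 and 159 for L3-S and 148 and 160.4 for L6-R, so its codes overlapped.

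Hoxb6, the next gene in HoxB, gave 165 and 125 for L3-B, 72.8 and 71.0 for L3-S and 41.7 and 51.2 for L6-R, again in 3 groups that did not overlap. It fell against L3-B by 1.17 ± 0.23 (2.24-fold, limma adjusted p = 0.0198), and stood at -0.41 ± 0.23 to L3-S (adjusted p = 0.456). L3-S stood at -0.76 to L3-B (adjusted p = 0.236). The call against L3-B was lost without the big L3-B array (adjusted p = 0.061), the big L6-R array (0.259) or the medium to small L6-R array (0.0705), and with a pseudocount 4 times as large (0.059).

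The other HoxB genes showed no order of codes. Hoxb3 gave 71.6 and 47.2 for L3-B, 64.8 and 101 for L3-S and 90.9 and 60.8 for L6-R, with a difference of L6-R to L3-S of -0.09 ± 0.27 (limma adjusted p = 0.923). Hoxb2 gave 31.5 and 33.4, 50.0 and 6.25, and 23.6 and 37.5, and Hoxb4 gave 3.17 and 39.6, 33.2 and 29.4, and 19.8 and 19.4. Both lay around the line of 32 and were left out by the filter. Hoxb1, Hoxb7, Hoxb9 and Hoxb13 were dim.

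In HoxA no member passed in any comparison in the main test. Hoxa9 was bright everywhere, with 3059.7 and 3129 for L3-B, 2853 and 2666 for L3-S and 2805 and 2524 for L6-R. The difference of L6-R to L3-S was -0.05 ± 0.22 (limma adjusted p = 0.944) and to L3-B -0.22 (adjusted p = 0.633), and the second Hoxa9 probe set stood at -0.16 to L3-S. Among the members reaching 32 in every array it held the narrowest band of signals, the highest being 1.24 times the lowest.

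Hoxa5 gave 102 and 107 for L3-B, 115 and 102 for L3-S and 55.4 and 66.9 for L6-R. Its L6-R arrays were lowest, at -0.60 ± 0.22 to L3-S (limma adjusted p = 0.233). The second Hoxa5 probe set stood at -0.10 to L3-S and at 0.48 to L3-B, where the one used stood at -0.55. The probe sets thus disagree, and the one used can cross-bind. Hoxa7, a thoracic gene, gave 31.4 and 98.3 for L3-B, 87.0 and 92.8 for L3-S and 17.4 and 49.9 for L6-R. The big L3-B array lay among the L6-R arrays, so the codes overlapped. Hoxa7 stood at -0.94 ± 0.28 to L3-S (adjusted p = 0.127) and passed without either L3-B array (adjusted p = 0.0409), without the medium to small L3-S array (0.0376) and with the Actb covariate (0.00886). Without the big L3-S array the difference was -0.53 (adjusted p = 0.626), and without the big or the medium to small L6-R array the adjusted p was 0.609 or 0.398.

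Hoxa10 gave 111 and 177 for L3-B, 138 and 78.6 for L3-S and 87.1 and 103 for L6-R, with overlapping codes and a difference of L6-R to L3-S of -0.12 ± 0.30 (limma adjusted p = 0.903). Hoxa3 gave 31.6 and 10.8, 32.3 and 15.03, and 11.4 and 17.0, and so was near background throughout.

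**Figure D2:**
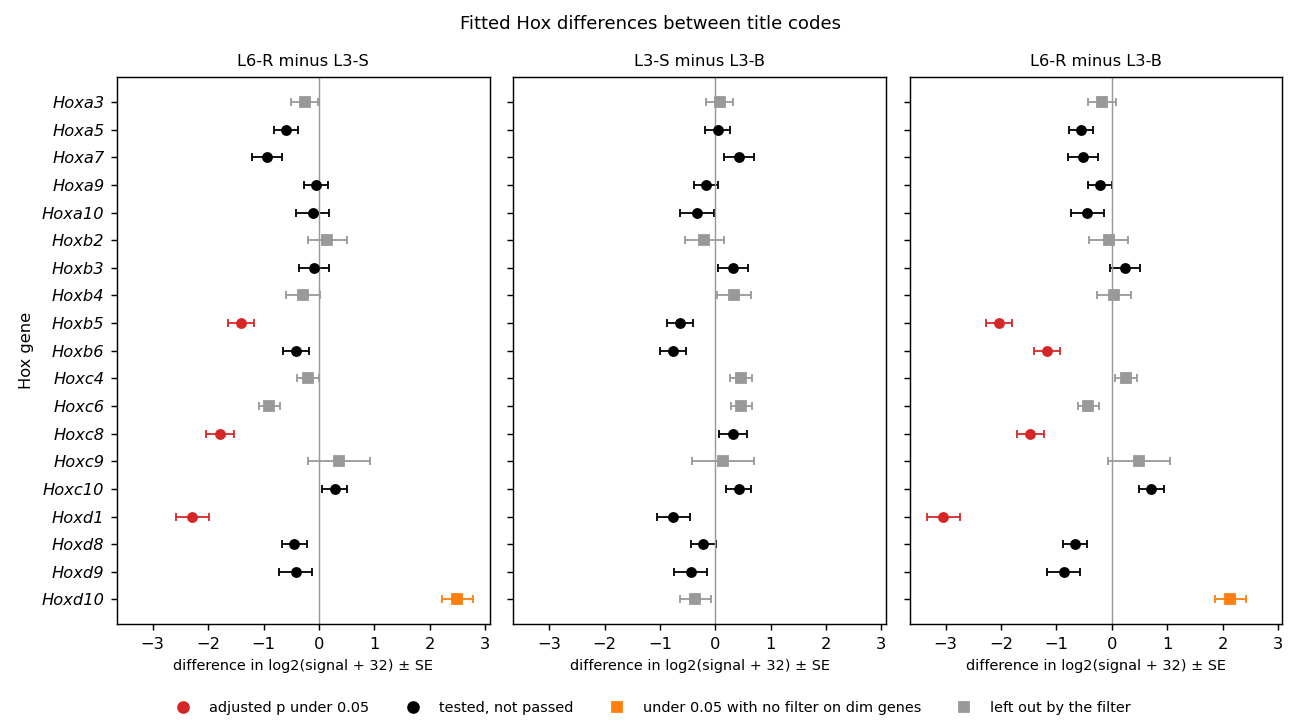
Fitted difference of log2(signal + 32) for the 19 Hox genes that were not dim, with bars of 1 SE, in the 3 comparisons of codes (2 arrays per code) on a shared axis. Red circles passed in the main test, orange squares passed only in the fit without the filter, black circles were tested and did not pass, and grey squares were left out by the filter. Hoxd1 lies farthest to the left at -2.29 in L6-R against L3-S, and Hoxd10 farthest to the right at 2.50.

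The members that were not dim are read here along the clusters. All 9 of paralogue groups 4 to 8 had a negative difference of L6-R to L3-S. Their median was -0.60, beside -0.03 for the 12533 genes that were not dim. Of these 9, Hoxb4 lay around 32 in L3-S (33.2 and 29.4) and under it in L6-R, and the Hoxc6 probe sets differed in sign. With the 3 dim members of these groups counted, 11 of 12 were negative and the median was -0.425, though signals under 32 have no order. Groups 1 to 3 had 3 negative of 4 and a median of -0.17, with Hoxd1 the only one past -1. Groups 9 to 13 had 3 negative and 3 positive, with a median of 0.12. Against L3-B the medians were -0.12, -0.55 and 0.14 for groups 1 to 3, 4 to 8 and 9 to 13, with 7 of 9 negative in groups 4 to 8, beside 0.02 for all genes that were not dim. For L3-S against L3-B they were -0.06, 0.32 and -0.25, beside 0.04. The members that were not dim were kept for being bright in at least 1 array. The counts are a description, with no test of a group against other genes or against another group.

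By cluster, 5 of 5 members that were not dim were negative in L6-R against L3-S in HoxA, 4 of 5 in HoxB, 3 of 5 in HoxC and 3 of 4 in HoxD, although no HoxA gene passed. HoxD held both the lowest and the highest difference. Across these 19 members, the difference of L6-R to L3-S and the paralogue number had a Pearson r of 0.42 and a Spearman rho of 0.34, as a description of genes measured in the same 6 arrays and chosen in part by their brightness. For L6-R against L3-B the values were 0.39 and 0.20, and for L3-S against L3-B 0.03 and -0.02.

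**Figure D3:**
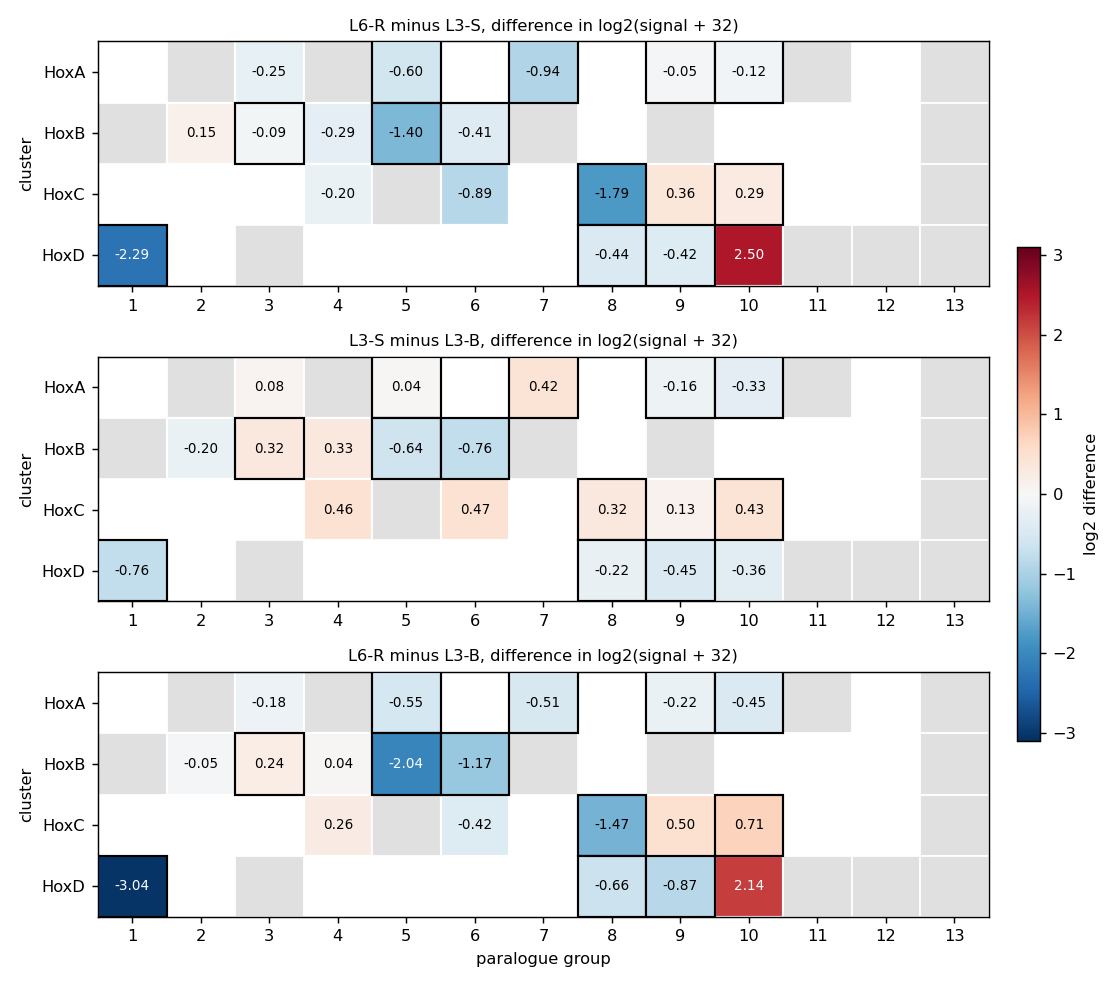
Fitted differences of log2(signal + 32) laid out by cluster and paralogue group for the 3 comparisons of codes. Blue is lower and red higher in the first-named code, black frames mark genes in the main test, grey cells are members dim in all 6 arrays, and white cells hold no member. In L6-R against L3-S all cells with values in groups 4 to 8 are blue and the red cell of Hoxd10 stands at 2.50.

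Signals of separated codes give a view free of the fit. Both L6-R signals were lower than all 4 L3-B and L3-S signals in 8 of the 19 members that were not dim (Hoxa5, Hoxb5, Hoxb6, Hoxc6, Hoxc8, Hoxd1, Hoxd8 and Hoxd9), where 14.5% of the 12533 genes that were not dim did so. Hoxc6 counts only through signals under 32. The second Hoxa5 probe set did not separate, with 22.3 and 35.3 for L3-B, 59.7 and 57.4 for L3-S and 43.8 and 61.7 for L6-R. Both were higher in 2 of 19 (Hoxc10 and Hoxd10), where 14.6% of genes did so. The share of members above is near that of all genes. Of the 8 genes, 6 belong to paralogue groups 4 to 8, which hold 9 of the 19 members. Hoxa5 and Hoxc6 are among these 6.

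The pairs of arrays of like size split the same differences by size class. For the 3 genes that fell against L3-S and for Hoxd10 both pairs had the same sign. The big pair was farther from 0 for Hoxd1, Hoxb5 and Hoxc8 and the medium to small pair for Hoxd10. These genes were picked by their calls in the fit of the same arrays, so the like signs restate the fit and add nothing to it. Whether the pairs differ cannot be tested with 1 array in each cell of the design.

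**Figure D4:**
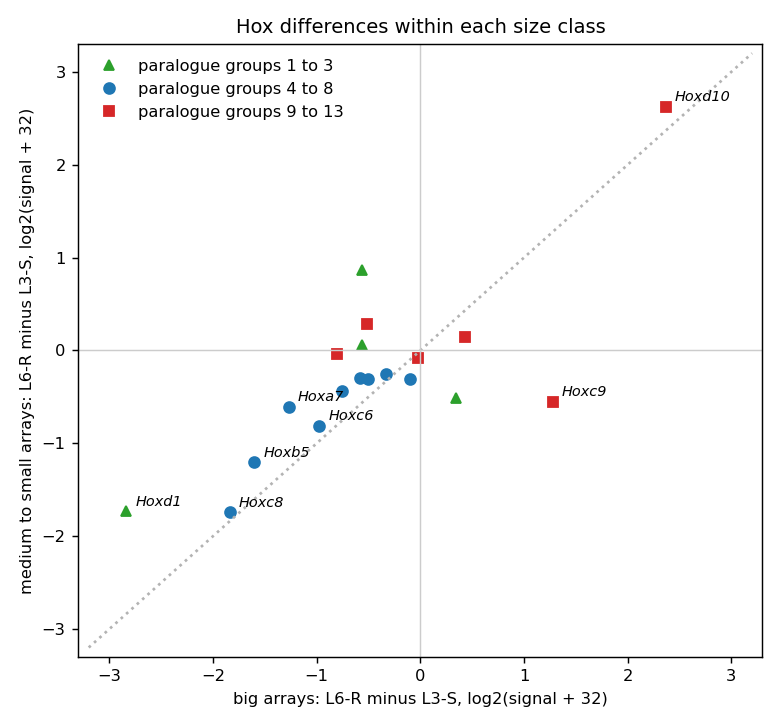
Difference of L6-R to L3-S in log2(signal + 32) for each of the 19 Hox genes that were not dim, in the big arrays (horizontal) and the medium to small arrays (vertical), with 1 array of each code per axis. Symbols give the paralogue groups and the dotted line is equality. Hoxd1, Hoxc8 and Hoxb5 lie low on both axes and Hoxd10 high on both, while Hoxb2 (-0.56 and 0.86) and Hoxc9 (1.28 and -0.55) have opposite signs.

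Size class moved no Hox gene past the test. For big minus medium to small 0 of 12 members passed, as did 0.0% of all genes in limma (smallest adjusted p 0.998), with 1 member lower at an unadjusted p under 0.05 (Hoxa7, at -0.61 ± 0.22) and 0 higher. Of all genes, 94 were higher and 226 lower at that level. The 12 tested members lay between -0.61 and 0.13, with a median of 0.02.

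Markers of other cell types were higher beside some of these results, and sensory neuron markers were higher in L6-R too. Of 9 tested sensory neuron markers, 8 were positive in L6-R against L3-B (median 0.61) and 1 rose. Against L3-S 7 of these 9 were positive (median 0.55) and 0 passed. In L6-R against L3-B, 4 of 9 tested satellite glia and Schwann cell markers rose (Apoe, Sox10, Mbp and Fabp7) and 3 of 4 connective tissue and vessel markers (Dcn, Rgs5 and Col1a2). In L6-R against L3-S 0 of 9 and 0 of 4 passed, with medians of 0.33 and 0.53. Of those 4, 3 were positive and Rgs5 stood at -1.59 ± 0.38 (limma adjusted p = 0.0721). In L3-S against L3-B 1 of 9 satellite glia and Schwann cell markers rose. So did 1 of 4 connective tissue and vessel markers, Rgs5 (3.32 ± 0.38, adjusted p = 0.00938). Some markers left out by the filter were higher in L6-R than in L3-S. C1qb, of microglia and macrophages, gave 47.4 and 38.9 for L3-B, 20.5 and 6.64 for L3-S and 95.2 and 110 for L6-R, and rose against L3-S in the fit without the filter (1.58 ± 0.22, adjusted p = 0.0469). Egr2, of myelinating Schwann cells, stood at 1.57 ± 0.32 in the same fit and did not pass (adjusted p = 0.118). Of the 7 blood and immune markers on the array, 5 were dim and 0 were bright enough for the main test. Besides C1qb only Lyz2 was not dim. It stood at 0.02 ± 0.39 to L3-S, with -0.70 in big and 0.75 in medium to small neurons. The part of these cells in the Hox differences, that of Hoxd10 included, was not tested. The number of neurons per pool (50 against 20) and the dye cannot be told apart from the code in any comparison with L3-B.

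Among the TALE cofactors, with which Hox proteins bind DNA, Meis2 followed the order of Hoxd1 and Hoxb5. Meis2 gave 1969.7 and 1504 for L3-B, 1094 and 827 for L3-S and 197 and 130.4 for L6-R, so the codes did not overlap. It fell in L6-R by 2.35 ± 0.22 against L3-S (5.10-fold, limma adjusted p = 0.00152) and fell by 3.18 ± 0.22 against L3-B (9.09-fold, adjusted p = 0.000219). The probe set used can bind more than 1 transcript, and of 3 others for Meis2 a pair stood at -2.262 and -1.998 to L3-S, while the other one, with signals of 2.87 to 17.9, stood at 0.46.

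Of the list's 11 cofactors 10 were on the array and 4 were tested, and Meis2 was the 1 that passed in L6-R against L3-S. Pbx3 gave 378 and 227 for L3-B, 549 and 598 for L3-S and 208 and 318 for L6-R. It stood at -1.06 ± 0.30 to L3-S (limma adjusted p = 0.115) and at -0.17 to L3-B, with L3-S the highest code. Pknox2 stood at 0.39 and Pbx2 at -0.14 to L3-S, and neither passed.

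Polycomb and trithorax proteins keep Hox genes silent or active through cell divisions. Of 23 listed, 19 were tested and 0 passed in L6-R against L3-S in limma, with a median of -0.29 beside -0.01 for all genes tested and 4 genes of smallest p at -0.77 (Cbx6), -0.76 (Jarid2), -0.77 (Cbx8) and 0.55 (Eed). The Polycomb gene Cbx6 fell against L3-B by 0.94 ± 0.23 (adjusted p = 0.0468), the only one of the list to pass there. Retinoic acid sets the Hox code in the embryo, and 3 of its 20 listed genes were tested. Of these 0 passed against L3-S (Rxrb -0.31, Rxra 0.12, Aldh1a1 0.07), and the retinaldehyde dehydrogenase gene Aldh1a1 fell against L3-B by 1.08 ± 0.24 (adjusted p = 0.0314).

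Homeobox genes of sensory ganglia outside the clusters had 11 of 19 tested and 0 past the threshold in L6-R against L3-S in limma. Zeb2 stood at 1.06 (adjusted p = 0.0884), Prrxl1 at -0.59, Tlx2 at -0.25 and Cux2 at 0.27, and the list's median was -0.06. Zeb2 rose against L3-B by 1.35 ± 0.28 (adjusted p = 0.0218).

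The protein-coding genes that flank the 4 clusters, 40 in all, were read in the same way. In L6-R against L3-S 0 of 26 tested neighbours passed in limma, with 13 positive and 13 negative and a median of -0.00. Those of smallest p were Snx11 (0.74, adjusted p = 0.129), Nfe2l1 (-0.63), Atp5g1 (-0.66) and Hibadh (-0.58). Mtx2, which lies on the Hoxd1 side of HoxD and codes for a mitochondrial outer membrane protein, gave 794 and 833 for L3-B, 651 and 523 for L3-S and 398 and 383 for L6-R. Its codes stood in the order of Hoxd1 without overlap. The share of all genes in such an order was not counted, here or for Meis2. Mtx2 stood at -0.54 ± 0.23 to L3-S (limma adjusted p = 0.288) and fell against L3-B by 1.00 ± 0.23 (adjusted p = 0.0332). Copz2, near HoxB, rose against L3-B by 0.95 (adjusted p = 0.0395). On the other side of HoxD, Evx2 lay between 1.72 and 41.5, with overlapping codes. Lnpk had its highest code in L3-B (481 and 530.2) and its lowest in L3-S (369 and 322), with L6-R between (407 and 471), and it did not pass (0.32 to L3-S, adjusted p = 0.56).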

How the data were processed

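The table deposited by the authors gives signal intensity per probe set on a linear scale. Each array's mean after trimming 2% at each end was 150.001, so the values were taken as scaled and not normalized again. The summary method is not given in the sources used here. Of 45037 probe sets, 34945 carried 1 symbol, 932 several and 9160 none. Median signals were 18.8 to 25.2, and the 6 arrays limit the precision. No detection calls were used.

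R 4.3.3 with limma 3.58.1 (lmFit, eBayes, two-sided) fitted code and size class to log2(signal + 32), leaving 2 residual degrees of freedom. The script was tested on simulated data. Every Hox gene with a signal of at least 32 was named with its values, dim ones without tests. Of other lists, up to 4 tested genes with the smallest p in L6-R against L3-S were named, and genes passing against L3-B, Mtx2, Evx2, Lnpk and Hoxb5os were named after their values were seen. The members, lists and alternatives were chosen with earlier results of these data known. The alternatives were quantile normalization, other pseudocounts, filters and probe set summaries, eBayes options, no size term, the Actb ratio as a covariate, each array left out, and a dim line of 16 or 64. Replicate numbers pair no arrays; the size class does, as a term of the model. Chromosomes, neighbours and promoter sequences came from RefSeq tables (GRCm38.p6), whose build may differ from the platform's.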

Additional observations from a re-analysis of the deposited data

Results flagged for a closer look

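Some Hox genes went opposite ways in the size classes, by at least 0.5 on the log2 scale in each. In L6-R against L3-S, Hoxb2 stood at -0.56 in the big arrays and 0.86 in the medium to small arrays. In the same comparison Hoxc9 stood at 1.28 and -0.55, and in L3-S against L3-B at -1.18 and 1.45. Each value sets 1 array against 1 array, and the difference between the size classes was not tested. Both genes had arrays under a signal of 32 and were left out by the filter.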

How the results depend on the processing

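The counts of Hox genes past the threshold (3 in L6-R against L3-S, 4 in L6-R against L3-B, 0 in L3-S against L3-B and 0 for size) kept within 1.5 times under the alternatives except the following. With the upper 25% of genes only 1 member was tested, and the counts were 0 in both comparisons of L6-R. The fit with the Actb 3' to 5' ratio as a covariate called more of the 9097 genes. It called 1590 in L6-R against L3-B, 997 in L6-R against L3-S and 512 in L3-S against L3-B. The main test called 683, 289 and 93 in the same order. With that covariate the Hox counts were 7 in L6-R against L3-B and 1 in L3-S against L3-B (Hoxb6). Leaving out each array in turn gave 2 to 4 in L6-R against L3-S and 2 to 5 in L6-R against L3-B, the 2 without the medium to small L6-R array, and 0 in the others. No paired analysis by replicate number was possible because each group has 1 array; the model without size class, and so with no replicate block, gave 3, 4, 0 and 0. Of 983 recomputed values of the 19 single genes, 953 kept their side of the threshold, 23 passed newly (14 of them Hoxd10) and 7 no longer passed. The cause was not tested. Among the 953 are 66 whose sign changed with neither value past the threshold. A dim line of 16 gave 3 dim members and one of 64 gave 18. For Hoxd10 the alternatives added to the fit without the filter were chosen after seeing the data. Signals under 32 cannot be ordered.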
